A study of Laccaria bicolor with 20 samples.

Results

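Gene model JGI-293826 of the ectomycorrhizal basidiomycete Laccaria bicolor encodes a protein that the study annotates as a clitocypin, a protease inhibitor. It is 1 of 23130 gene models in the deposited tables and 1 of the 14725 that passed the expression filter, and it was found by its JGI protein number, which the files list as '293826' and which is written here with the prefix JGI-. The gene was picked with its rise on phosphate-free medium already known, so that its level there is given as a description without a test. All other comparisons of the gene were tested. Those with control reuse the control libraries against which this known rise was measured, whereas +N against −N and +C against −C do not. The lists of other genes described below were chosen with earlier results of these data known. Their p-values and counts describe those chosen genes. Its transcript, as implied by the ratio of read count to length-scaled value, is 595 nt long, and read counts of the gene lay between 4 and 1455 per library.

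Clitocypins belong to the mycocypins, small inhibitor proteins known from mushroom-forming fungi and first described in the clouded agaric Clitocybe nebularis. In that species they fold as a β-trefoil and bind papain-like cysteine proteases and, through another loop, the asparagine-specific protease legumain. They have been studied there as defence proteins against fungus-feeding insects and as regulators of the fungus's own proteases. Whether the product of JGI-293826 inhibits any protease was not measured here.

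RNA was sequenced from free-living mycelium of strain S238N in 20 libraries, which the labels call biological replicates. Colonies of all groups were grown on cellophane over modified Melin Norkrans (MMN) agar in the dark at 25 °C, for 2 weeks on control medium and then for 1 week on the test medium. Control medium (n = 3) held 0.5% glucose with ammonium and phosphate salts. The −N medium (n = 3) lacked ammonium salts, its phosphate being restored with KH2PO4, whereas +N (n = 3) received an extra 25 mM ammonium chloride salt. The −P medium (n = 3) lacked phosphate salts, its ammonium being restored as chloride, whereas +P (n = 2) received an extra 25 mM KH2PO4. Glucose was 0.02% in −C (n = 3) and 2% in +C (n = 3). Malt extract and casein hydrolysate are not listed as changed in any medium, so that −N still held organic nitrogen. Libraries held between 9.47 and 33.1 M counted reads. For 15 of the 20, the nearest library in overall expression was of the same medium. Control replicate 3 and −P replicate 1 were nearest to each other, as were +C replicate 1 and +P replicate 1, and +P replicate 2 was nearest to +C replicate 2. Without control replicate 3 the log2 fold changes of JGI-293826 from control given below were 4.56 for +N and −0.84 for −N. They were 0.55 for −C and 0.41 for +C, and −1.59 for +P and 2.43 for −P. Values of the relatives and other genes are those with all libraries unless stated.

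The level of JGI-293826 was highest with surplus ammonium, where the mean was 43.6 ± 5.14 CPM (TMM-scaled counts per M reads, SD, n = 3), followed by −P with 10.3 ± 7.85. The means of −C (2.74 ± 0.498), +C (2.65 ± 1.19) and control (1.82 ± 0.311) lay close together. The lowest were −N with 1.03 ± 0.0477 and +P with 0.573, of which the libraries had 0.343 and 0.803 CPM. In this order the ranges of −P and −C, of −C and +C, and of +C and control overlapped between neighbours. The ranges of +N and −P, of control and −N, and of −N and +P did not.

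**Figure D1:**
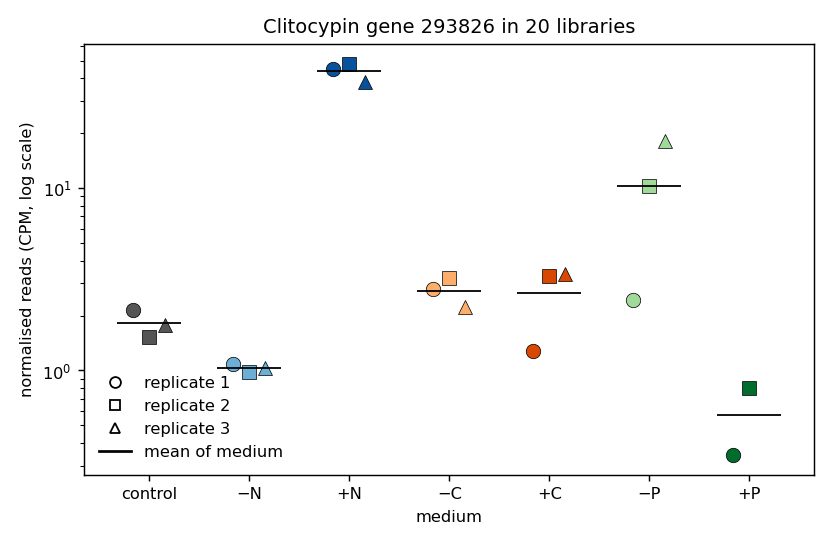
Normalised reads of JGI-293826 (CPM, log axis) in each of the 20 libraries, grouped by medium, with the mean of each medium as a line. The 3 +N libraries lie between 38.0 and 48.2 CPM, above all others, while the −P libraries spread from 2.43 to 18.1 CPM.

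Against other genes and per transcript length (RPKM, reads scaled by length and library size), JGI-293826 lay below the median tested gene in control medium and above it in +N. Ranks are over all 23130 models, of which 4188 had no read in any library. Its mean of 2.99 ± 0.547 RPKM in the control placed it 11794th of 23130 models, where the median tested gene had 14.9 RPKM. In +N its mean of 70.5 ± 5.52 RPKM placed it 1919th, above 91.7% of models. In −P it ranked 6853rd, in −C 10801st, in +C 10921st, in −N 13385th and in +P 14032nd.

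The comparison of +N with control asked how surplus ammonium changed the gene. The control libraries had 37, 23 and 25 reads of JGI-293826 (2.15, 1.54 and 1.77 CPM), and the +N libraries had 591, 1455 and 438 reads (44.7, 48.2 and 38.0 CPM). Every +N library exceeded every control library, and the +N libraries stayed close to each other although their totals differed. The log2 fold change was 4.57 ± 0.45 (SE, 95% interval 3.65 to 5.50), a 23.8-fold rise, with an adjusted p of 4.86e-08 in edgeR's quasi-likelihood test. In this comparison 14.1% of tested genes were called higher and 15.7% lower at an adjusted p under 0.05, and the rise of JGI-293826 was the 14th largest of 14725. It was also called in all 15 alternative fits, with log2 fold changes between 4.47 and 5.07.

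Removal of ammonium gave a small difference that did not pass the test. The −N libraries had 18, 13 and 20 reads (1.08, 0.986 and 1.03 CPM), all below the lowest control library. The log2 fold change was −0.82 ± 0.62 (95% interval −2.11 to 0.48, adjusted p = 0.345), in a comparison in which 14.7% of genes were called higher and 17% lower. The interval, from a fit that shares its estimate of spread over all media, holds both no change and a drop beyond 4-fold. In a fit on −N and control alone the value was −0.80 ± 0.32 (adjusted p = 0.0618), also not called. All −N libraries, control replicate 1 and −P replicate 3 carry a letter i in their names, the meaning of which is not stated. With a term for the letter the value was −1.53 (adjusted p = 0.065). Only control and −P hold libraries of both kinds, so that this term rests on them alone. It draws on the −P values known when the gene was picked, among them the 18.1 CPM of replicate 3. The value with the term is therefore not free of that choice.

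Between the ends of the ammonium series the gene differed most. In +N against −N the log2 fold change was 5.39 ± 0.48 (95% interval 4.39 to 6.39, adjusted p = 5.12e-09), or 42.0-fold. With the letter term, which rests on the control and −P libraries, it was 6.60 (adjusted p = 1.24e-08). Without that term the comparison uses no control library, and 48.8% of all tested genes were called in it in either direction. The change of JGI-293826 was the 21st largest rise.

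Neither low nor surplus glucose gave a difference that passed the test. The −C libraries had 49, 89 and 47 reads (2.78, 3.21 and 2.22 CPM), all above the highest control library. The log2 fold change was 0.59 ± 0.51 (95% interval −0.47 to 1.65, adjusted p = 0.395), where 18.2% of genes were called higher and 19.4% lower. The +C libraries had 30, 53 and 34 reads (1.28, 3.30 and 3.38 CPM), so that replicate 1 lay below all control libraries and replicates 2 and 3 above them. The log2 fold change was 0.44 ± 0.54 (95% interval −0.69 to 1.57, adjusted p = 0.723), with 4.29% of genes called higher and 4.75% lower. Without +C replicate 1, the library nearest to a +P library, it was 0.86, and without replicate 2 or replicate 3 it was 0.17 or 0.25. In a fit on −C and control alone the value was 0.58 ± 0.25 (adjusted p = 0.0813). On +C and control alone it was 0.51 ± 0.40 (adjusted p = 0.564), and neither was called. In +C against −C the log2 fold change was −0.15 ± 0.49 (95% interval −1.16 to 0.86, adjusted p = 0.844), while 36.7% of genes were called. The letter term again rests on the control and −P libraries. With it the values against control were 1.09 for −C (adjusted p = 0.0748) and 0.94 for +C (adjusted p = 0.275).

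With surplus phosphate the values were the lowest of all media, but the difference from control did not pass the test. The +P libraries had 4 and 14 reads, both below every control and every −N library. The log2 fold change was −1.57 ± 0.81 (95% interval −3.25 to 0.12, adjusted p = 0.264). In this comparison 4.23% of genes were called higher and 5.6% lower, and the value of JGI-293826 was the 73rd lowest of 14725. Without +P replicate 1 it was −1.18, and without +P replicate 2, which leaves only the library with 4 reads, it was −2.39. In a fit on +P and control alone the value was −1.57 ± 0.49 (adjusted p = 0.079), also not called.

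On phosphate-free medium the 3 libraries did not behave alike. They had 42, 112 and 248 reads, or 2.43, 10.3 and 18.1 CPM. All 3 exceeded the control libraries, but replicate 1 did so narrowly, the highest control library having 2.15 CPM. The fitted log2 fold change was 2.46, the 4th largest of 14725, and this rise was known when the gene was picked. By its own test and fold-change cutoff, the study reported no gene as significantly changed between this medium and control. It was 2.96 without −P replicate 1, the library nearest to a control library, and 1.70 without replicate 3. The SD of log2 CPM across the −P libraries was 1.46, larger than for 99.9% of tested genes, of which the median had 0.16. The corresponding SD was 0.75 in +C and 0.70 in +P, above 94.7% and 94.6% of genes. The +P value rests on 2 libraries with 4 and 14 reads. All these percentages are over tested genes of any level, and not over genes with as few reads. The SD was 0.06 in −N, 0.17 in +N, 0.23 in the control and 0.26 in −C.

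The study names 8 gene models of L. bicolor as clitocypins, and their levels per length changed order between media. In control medium JGI-311135 (34.7 ± 5.49 RPKM) and JGI-385833 (31.6 ± 3.27) held most of the reads per length of the family. They were followed by JGI-382297 (13.5 ± 3.90), JGI-318727 (9.32 ± 1.08) and JGI-602958 (8.56 ± 1.58). The gene JGI-326015 (3.37 ± 1.21), JGI-293826 and JGI-326016 (1.93 ± 0.149) were lowest, so that JGI-293826 was 7th of 8. In +N the order was led by JGI-602958 with 333 ± 35.6 RPKM, and JGI-293826 came next, ahead of JGI-326016 with 28.6 ± 2.66 and JGI-311135 with 22.0 ± 1.65. Because reads with up to 10 hits were kept and the handling of shared reads is not stated, counts of clitocypins that resemble each other in sequence could be partly exchanged.

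**Figure D2:**
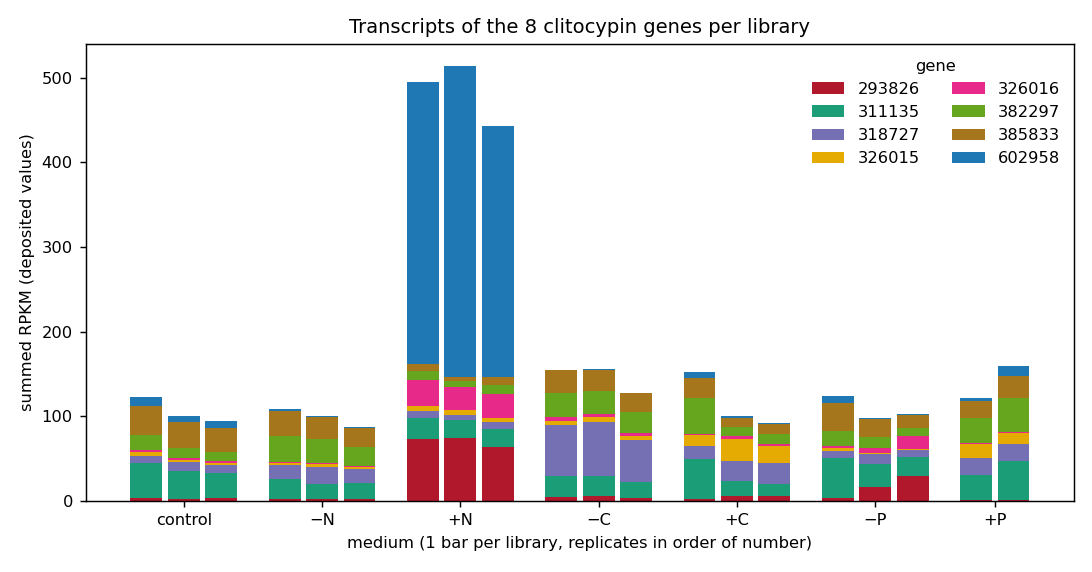
Deposited RPKM of the 8 clitocypin genes stacked for each of the 20 libraries, 1 bar per library, grouped by medium. The +N bars reach 443 to 514 RPKM and are mostly JGI-602958, and the red section, JGI-293826, is wide only in +N and in −P replicates 2 and 3.

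The summed level of the 8 genes was 106 ± 14.8 RPKM in control and 484 ± 36.8 in +N. It was 98.7 ± 11.0 in −N, 146 ± 15.8 in −C, 115 ± 32.6 in +C, 108 ± 13.7 in −P, and 121 and 159 in the +P libraries. The share of JGI-293826 in this sum was 2.59 to 2.94% in the control libraries and 14.4 to 14.9% in +N. In −P the share was 3.10% in replicate 1, 17.2% in replicate 2 and 29.0% in replicate 3, although the sum itself stayed near that of the control. The share was 1.71 to 2.04% in −N, 2.88 to 3.56% in −C and 0.473 to 0.893% in +P. In +C it was 1.35% in replicate 1 and 5.94 and 6.54% in replicates 2 and 3.

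In +N, 3 of the 7 other clitocypins were called higher, 1 lower and 3 were not called, against 14.1% and 15.7% of all genes. The 7 had a median log2 fold change of −0.33. Over all tested genes the median was between −0.01 and 0.02 in each comparison with control. The highest was JGI-602958, which went from 4.30, 2.94 and 3.89 CPM in the control to 144, 171 and 125 CPM, and its log2 fold change was 5.30 ± 0.37 (adjusted p = 3.65e-10). Next was JGI-326016, from 1.05, 1.14 and 1.06 CPM to 17.7, 16.0 and 15.02 CPM (3.90 ± 0.41, adjusted p = 1.32e-07). In both genes, as in JGI-293826, the +N libraries lay far above all control libraries. The third, JGI-326015, rose by 0.84 ± 0.29 on the log2 scale (adjusted p = 0.0337). The gene JGI-385833 fell by 2.15 ± 0.30 on that scale, from 16.5 to 3.88 CPM (adjusted p = 9.11e-06).

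**Figure D3:**
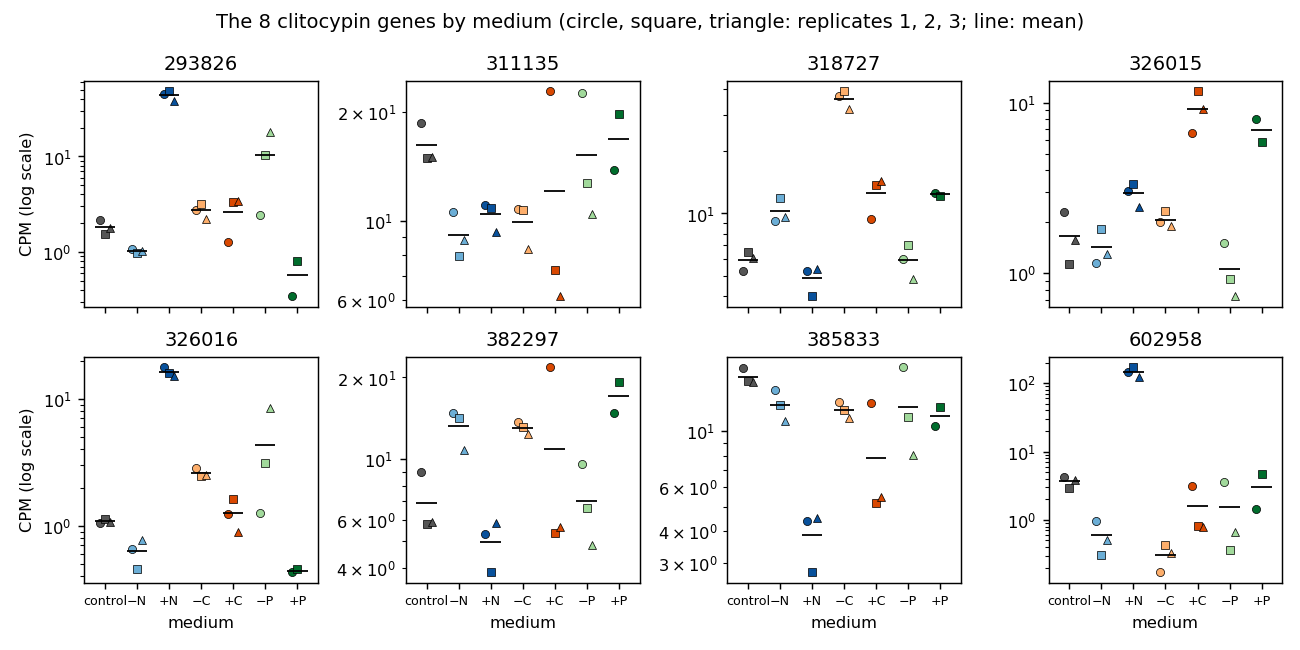
CPM (log axis, scaled for each gene) of the 8 clitocypin genes in every library by medium, with replicates as symbols and means as lines. The panels of JGI-293826 and JGI-326016 have a like outline, JGI-602958 shares only the +N peak, and JGI-318727 peaks in −C while JGI-326015 peaks in +C and +P.

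In the other media the relatives changed in members that differed from medium to medium. In −N, 1 of the 7 was called higher and 1 lower (median log2 fold change −0.37), shares near those of all genes, 14.7% and 17%. These were JGI-318727, which rose by 0.77 ± 0.17 on the log2 scale (adjusted p = 0.00182), and JGI-602958, which fell by 2.60 ± 0.62 (adjusted p = 0.00268). In −C, 2 were called higher and 1 lower (median 0.31), against 18.2% and 19.4% of all genes. Here JGI-318727 rose from 5.97 to 36.0 CPM (2.59 ± 0.17, adjusted p = 7.41e-11), JGI-326016 rose by 1.25 ± 0.44 (adjusted p = 0.0297), and JGI-602958 fell by 3.47 ± 0.64, to 3, 12 and 7 reads (adjusted p = 0.000192). The test of JGI-293826 in −C, with its smaller estimate, did not pass, and its difference from JGI-326016 was not tested.

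In +C, 2 of the 7 were called higher and 1 lower (median 0.25), against 4.29% and 4.75% of all genes. The gene JGI-326015 rose from 1.65 to 9.12 CPM (2.44 ± 0.27, adjusted p = 3.03e-06), JGI-318727 rose by 1.05 ± 0.17 (adjusted p = 0.000312), and JGI-385833 fell by 1.01 ± 0.28 (adjusted p = 0.0232). Without +C replicate 1, 5 were called, 2 higher and 3 lower. The share of all genes called in that fit was not computed. In +P, 3 were called higher and none lower (median 0.06), against 4.23% and 5.6% of all genes. These were JGI-326015 with 2.04 ± 0.30 (adjusted p = 8.46e-05), JGI-382297 with 1.30 ± 0.40 (adjusted p = 0.0409) and JGI-318727 with 1.05 ± 0.19 (adjusted p = 0.000817). The gene JGI-311135 was called in no comparison with control.

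In −P none of the 7 other clitocypins was called by edgeR, in a comparison that called 0.0951% of genes higher and 0% lower. The median log2 fold change was −0.07. At an unadjusted p under 0.05, 1 was higher and 1 lower, and DESeq2 called 1. Without −P replicate 1, 1 was called higher and 1 lower. The shares of all genes at an unadjusted p, in DESeq2 or in this last fit were not computed. The nearest to a call was JGI-326016, with 1.27, 3.12 and 8.48 CPM in −P against 1.05 to 1.14 CPM in the control (log2 fold change 1.96 ± 0.44, adjusted p = 0.0892). Like JGI-293826 it was lowest in replicate 1 and highest in replicate 3. In replicates 2 and 3 of −P, JGI-311135 (12.7 and 10.5 CPM), JGI-385833 (11.4 and 8.04), JGI-382297 (6.61 and 4.82) and JGI-602958 (0.367 and 0.658) lay below their values in replicate 1, which were 22.6, 18.0, 9.65 and 3.58 CPM. In +C, too, these 4 genes were lower in replicates 2 and 3 than in replicate 1, while JGI-293826 was higher in replicates 2 and 3.

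Over the 20 libraries JGI-326016 followed JGI-293826 most closely of all relatives, with a Pearson r of 0.96 on log2 CPM, and 0.89 over the 17 libraries outside +N. These values describe libraries that share media, and no p is given. Per length the ratio of JGI-326016 to JGI-293826 was not fixed. It lay between 0.287 and 1.35 over all libraries, with 0.361 to 0.429 in +N, 0.527 to 0.801 in the control and 0.828 to 1.22 in −C. For JGI-602958 the r was 0.63 over 20 libraries and −0.33 over the 17 without +N. The r of the other relatives was −0.15 for JGI-326015, −0.25 for JGI-311135, −0.43 for JGI-318727, −0.73 for JGI-382297 and −0.74 for JGI-385833.

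Outside the clitocypins, the 5 genes with a pattern most like JGI-293826 were JGI-552049 (r = 0.95), JGI-640526 (0.94), JGI-573693 (0.94), JGI-704573 (0.94) and JGI-305233 (0.93), the last of which the study lists as a small secreted protein. Over the 17 libraries without +N the r was between 0.79 for JGI-305233 and 0.90 for JGI-704573. Of 14717 genes compared, 17 had an r over 0.9 and 161 over 0.8, and the median was −0.02. By Spearman's coefficient 2 of these 5 remained among the first 5, and over the 7 media means 3 did.

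In +N their log2 fold changes from control were 2.81 ± 0.26 for JGI-552049, 1.60 ± 0.23 for JGI-640526, 1.91 ± 0.25 for JGI-573693, 2.62 ± 0.15 for JGI-704573 and 4.23 ± 0.32 for JGI-305233. They are given without a test, since the r was computed on the same libraries. The small secreted protein gene JGI-305233 went from 6.77 ± 1.06 CPM in the control to 127 ± 2.73 CPM. In −P the 5 values were 0.83, 0.87, 0.92, 0.64 and 1.78 in the same order of genes, and in +P all but that of JGI-305233 were below 0. In all 5, as in JGI-293826 and JGI-326016, −P replicate 1 lay below −P replicates 2 and 3. The choice of the 5 genes by r on these same libraries favours such a shared order.

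**Figure D4:**
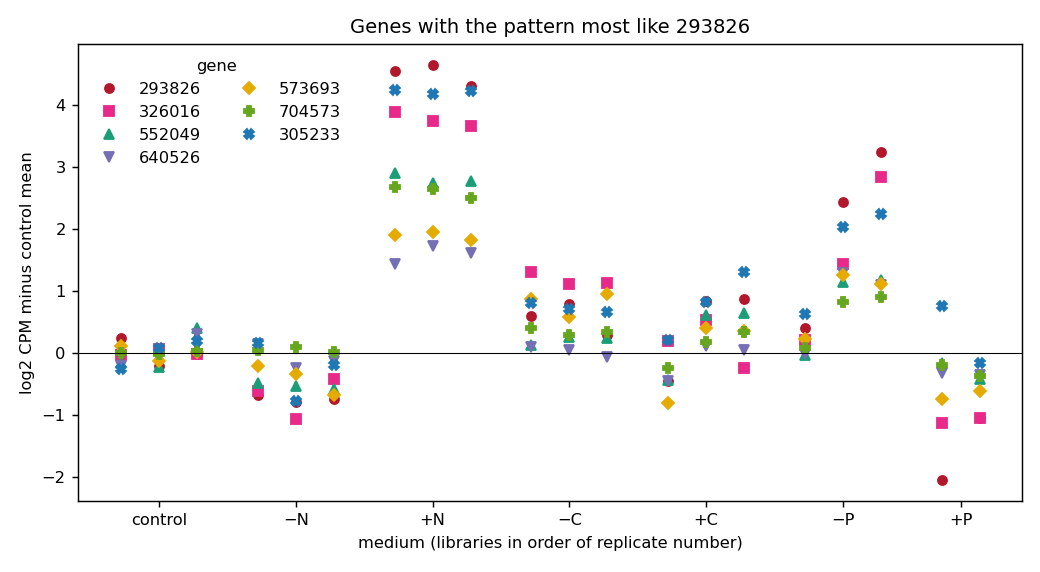
Log2 CPM minus the control mean for JGI-293826, its relative JGI-326016 and the 5 most alike genes outside the family, for each library in order of replicate number within a medium. All 7 genes are highest in +N, and in −P all 7 are lower in replicate 1 than in replicates 2 and 3. The 5 genes outside the family were chosen by their likeness in these same libraries, which favours a shared pattern.

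Papain-like and legumain-type peptidases are the enzymes that clitocypins of Clitocybe nebularis bind. Examined were 4 gene models annotated as cysteine peptidases of papain-like, bleomycin hydrolase or legumain type. Like the inhibitors below, they were chosen with earlier results of these data known, which limits what their p-values mean. Whether a clitocypin of L. bicolor binds any of their products was not measured. The most abundant was JGI-635298, a cysteine endopeptidase of bleomycin hydrolase type. It had 701, 713 and 824 CPM in the control and 151, 158 and 145 CPM in +N, a fall by 2.30 ± 0.14 on the log2 scale (adjusted p = 3.91e-11). In −C it fell by 2.26 ± 0.14 (adjusted p = 4.63e-11). All +N and −C libraries of JGI-635298 lay far below all control libraries. The bleomycin hydrolase JGI-708971 rose slightly in +N, by 0.48 ± 0.07 (adjusted p = 1.03e-05), in −C, by 0.22 ± 0.07 (adjusted p = 0.0157), and in +C, by 0.26 ± 0.07 (adjusted p = 0.0176). The papain-like peptidase JGI-701323 was not called in +N (−0.07 ± 0.14, adjusted p = 0.765) and rose in −N (0.58 ± 0.13), −C (0.85 ± 0.13) and +C (0.71 ± 0.13), with 0.00208 the largest of these adjusted p-values. The legumain-type peptidase JGI-631723 was called in no comparison with control, and its CPM stayed between 29.3 and 38.1 in all 20 libraries.

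Of 5 other inhibitor genes, JGI-295829, the best match of the serine protease inhibitor cospin of the mushroom Coprinopsis cinerea, changed most. It went from 3.26, 2.87 and 2.97 CPM in the control to 53.4, 49.6 and 42.1 CPM in +N (log2 fold change 3.99 ± 0.20, adjusted p = 1.87e-12). Unlike JGI-293826 it was also called higher in −N, by 0.96 ± 0.22 (adjusted p = 0.00172). It rose in −C by 0.63 ± 0.22 (adjusted p = 0.0254). The inhibitor JGI-476306, of family I9, fell in +N by 1.79 ± 0.18 (adjusted p = 9.72e-08), and JGI-303579, of the same family, rose by 0.34 ± 0.11 (adjusted p = 0.022) and, in −N, by 0.54 ± 0.11 (adjusted p = 0.000621). The cospin-like JGI-674342 had between 0.0708 and 0.827 CPM over all libraries and was not called in any comparison with control. The small secreted inhibitor JGI-307961 had reads only in −N (10, 1 and 8) and 1 read in a +N library, and was not tested.

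Counted together, 8 of these 9 peptidase and inhibitor genes were tested, and in +N 3 were called higher, 2 lower and 3 were not called (median log2 fold change 0.19), against 14.1% and 15.7% of all genes. In −N 3 were higher and 5 not called (median 0.36), against 14.7% higher and 17% lower. In −C 3 were higher and 1 lower (median 0.16), against 18.2% and 19.4%, and in +C 2 were higher (median 0.09), against 4.29%. Without control replicate 2, control replicate 3 or −C replicate 1 the count in −C was 2. Without control replicate 2, control replicate 3 or +C replicate 3 that in +C was 1. By edgeR none was called in −P (median 0.06), where 0.0951% of all genes were higher and 0% lower, or in +P (median 0.16), where 4.23% were higher and 5.6% lower. At an unadjusted p under 0.05 there were 0 in −P and 2 in +P, and DESeq2 called 0 and 1. Without −P replicate 1, 1 was called lower in −P. For the unadjusted p, DESeq2 and the fits with a library left out, the shares of all genes were not computed.

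The study places JGI-293826 in a group of 14 gene models specific to mature mycorrhiza, a grouping made on other libraries than these. It also lists the gene among transcripts higher in both mycorrhiza and fruiting bodies than in free-living mycelium. For mature mycorrhiza groups, among them a group of mainly protease inhibitor genes, the study proposes that some genes may relate to senescence or ageing of the colony. The other 13 gene models of the 14 were examined here in free-living mycelium. This list overlaps with those above. Genes such as JGI-326016, JGI-385833, JGI-635298 and JGI-476306 are counted in both, so that the counts are not separate. In +N 3 were called higher, 6 lower and 4 were not called, with a median log2 fold change of −0.63, against 14.1% higher and 15.7% lower of all genes. The 3 that rose were JGI-326016, the amino acid permease JGI-254728 (2.45 ± 0.21, adjusted p = 6.64e-09) and the cupin JGI-476326 (2.47 ± 0.22, adjusted p = 1.03e-08). The 6 that fell were JGI-635298, JGI-385833, JGI-476306, the lipase JGI-182815 (−1.59 ± 0.16), the glucose-methanol-choline oxidoreductase JGI-684961 (−1.61 ± 0.15) and the cytochrome P450 JGI-669382 (−0.87 ± 0.13).

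**Figure D5:**
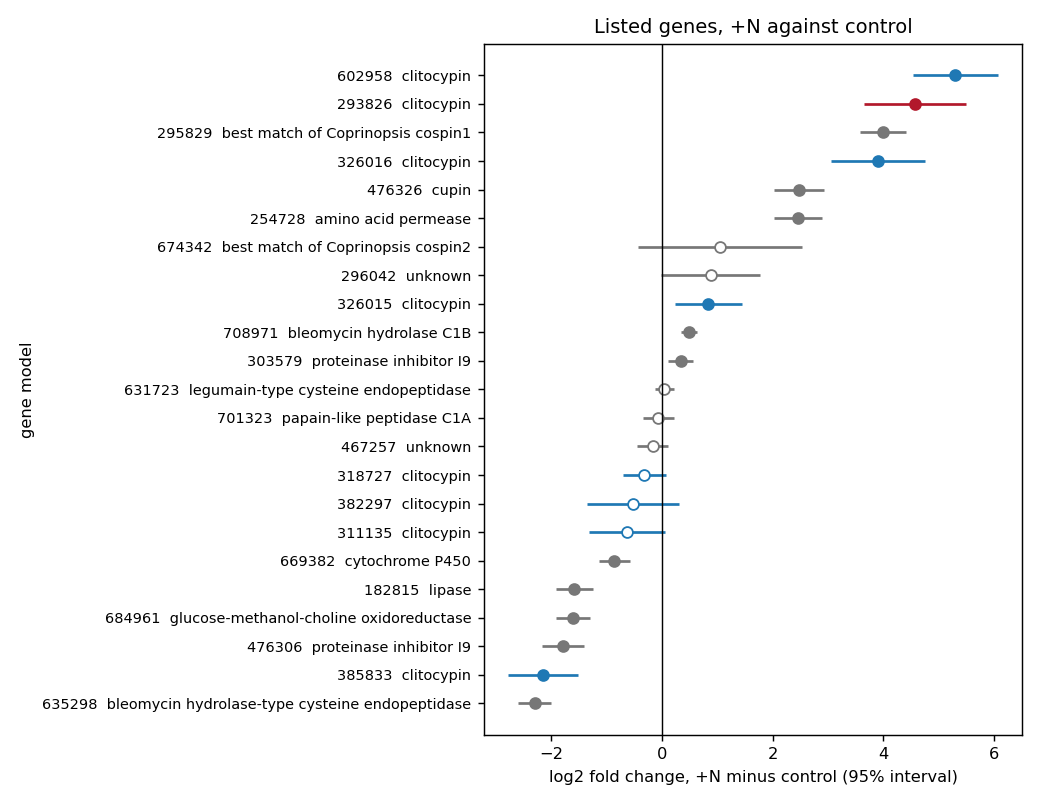
Log2 fold change in +N against control, with its 95% interval, for the 23 tested genes of the clitocypins, cysteine peptidases, other inhibitors and mycorrhiza group. Filled points passed the test, and JGI-293826 (red) stands second at 4.57, below JGI-602958 at 5.30 and above JGI-295829 at 3.99, while JGI-635298 is lowest at −2.30.

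In −C 4 of the 13 were called higher and 2 lower (median log2 fold change 0.07), against 18.2% and 19.4% of all genes. Among them were JGI-326016 and JGI-635298, as given above. The lipase JGI-182815 rose by 1.82 ± 0.15 (adjusted p = 2.24e-09), the oxidoreductase JGI-684961 by 1.40 ± 0.13 (adjusted p = 2.86e-08) and the permease JGI-254728 by 1.39 ± 0.21 (adjusted p = 1.84e-05). The unknown gene JGI-467257 fell by 2.07 ± 0.15 (adjusted p = 3.33e-10). Of these, JGI-182815 and JGI-684961 changed in opposite directions in −C and +N, and JGI-254728 rose in both. In −N 1 of the 13 was called higher and 1 lower (median 0.13), below the 14.7% and 17% of all genes, the count being 1 without control replicate 2 or −N replicate 1. In +C 2 were higher and 1 lower (median −0.05), against 4.29% and 4.75%, the count being 1 without +C replicate 2. In +P 3 were higher and none was lower (median 0.06), against 4.23% and 5.6%. In −P, with 0.0951% of all genes higher and 0% lower, none was called by edgeR (median 0.04), 4 were higher and 0 lower at an unadjusted p under 0.05, and DESeq2 called 1. Without −P replicate 1, 5 of the 13 were called, 4 higher and 1 lower. The shares of all genes at an unadjusted p, in DESeq2 or with a library left out were not computed. These counts therefore cannot be set against them.

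All comparisons with control rest on the same 3 control libraries, so that their values are not independent of each other. For JGI-293826, which had 23 to 37 reads there, this bears most on the media with small differences. In bulk RNA, fewer hyphae of a kind and less transcript per hypha cannot be told apart.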

How the data were processed

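As stated in the study's methods, the authors trimmed reads, removed those under 15 nt and aligned them to the JGI v2 reference transcripts with CLC Genomics Workbench 8, with a length fraction of 0.9, a similarity of 0.8 and up to 10 hits per read. The authors deposited raw read counts per gene model and RPKM values, which divide the counts by transcript length and library size. Whether counts are of unique or total reads, and whether strand was used, is not given in the sources used here.

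Groups came from the labels. The deposited counts of all 20 libraries entered 1 fit of edgeR 4.0.16 in R 4.3.3 (TMM, default expression filter by group, quasi-likelihood F-test, a mean per medium, no covariate), with Benjamini-Hochberg adjustment over 14725 genes in each comparison and a threshold of 0.05. Standard errors and 95% intervals came from the F statistic. Deposited RPKM values were used to compare levels between genes. Likeness was Pearson's r of log2 CPM with a prior count of 2. Precision is limited by 9.47 to 33.1 M reads per library, and no replicate pair of 19 was identical. The script was tested on simulated counts before use.

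Named genes were JGI-293826, the genes of 3 lists (clitocypins, cysteine peptidases and other inhibitors, the mature mycorrhiza group, 24 genes in all) and the 5 most alike genes. The gene and the lists were chosen with earlier results of these data known. Annotations are those of the study, whose tables were held only in part. Of 23130 models, 6580 matched a RefSeq locus tag of another assembly, among them 11 of the 24 listed, so that no coordinates are given. Alternatives were upper quartile and RLE scaling, DESeq2 1.42.0, 2 other filters on low counts, fits on the compared groups alone, a replicate block, a term for the letter i, thinned libraries and leaving out each library in turn.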

Additional observations from a re-analysis of the deposited data

How the results depend on the processing

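For JGI-293826, no call changed under any alternative. Its log2 fold change from control ranged from 4.47 to 5.07 in +N (4.47 to 4.72 with 1 library left out, adjusted p from 7.59e-16 to 1.63e-06), from −1.53 to −0.33 in −N (−0.93 to −0.67), from 0.44 to 1.09 in −C (0.44 to 0.74), from 0.17 to 0.94 in +C (0.17 to 0.86) and from −2.39 to −1.07 in +P (−2.39 to −1.18). Leaving out a +P library leaves 1, assumed to vary like the other groups. The ends 5.07, −1.53, 1.09, 0.94 and −1.07 came from the letter term, which rests on the control and −P libraries. In −P the value, not tested, ranged from 1.70 to 2.96. The value of +N against −N ranged from 5.14 to 6.60 (5.31 to 5.48 with 1 library left out). The difference +C against −C, never called, ranged from −0.43 to 0.27. It turned to 0.10 with thinned libraries, 0.01 without −C replicate 2 and 0.27 without +C replicate 1.

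The counts of called list genes moved more, and the cause was not tested. The share of all genes called was not computed for any alternative fit in this section. These counts therefore cannot be set against it. Upper quartile scaling gave 4 of the mycorrhiza group in −N and 2 peptidases or inhibitors in +P. Without a filter on low counts there were 4 clitocypins and 5 of the mycorrhiza group in −N, and 1 of each in −P. The term for the letter i gave 1 of each in −P, as did DESeq2, which also gave 1 peptidase or inhibitor in +P. In fits on the compared groups alone, 5 clitocypins and 7 of the mycorrhiza group were called in −N, 6 and 10 in −C, and 1 of the mycorrhiza group and 1 peptidase or inhibitor in +C.

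With 1 library left out, the clitocypin counts ranged from 2 to 3 in −N, 3 to 4 in +N, 2 to 3 in −C, 2 to 5 in +C, 0 to 2 in −P and 2 to 3 in +P. Those of peptidases and inhibitors were 3 in −N, 4 to 5 in +N, 2 to 4 in −C, 1 to 2 in +C, 0 to 1 in −P and 0 in +P. Those of the mycorrhiza group ranged from 1 to 3 in −N, 9 to 10 in +N, 5 to 6 in −C, 1 to 3 in +C, 0 to 5 in −P and 2 to 3 in +P.

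Pairing by replicate number was checked by correlating deviations of same-number libraries from their medium means. No comparison had every such correlation over 0.1 (range −0.38 to 0.30). All were positive in −C against control (0.13, 0.07 and 0.30) and in +N against −N (0.02, 0.05 and 0.01). With 2 or 3 libraries per medium, the check cannot exclude a pairing. With the replicate block 4 clitocypins and 4 of the mycorrhiza group were called in −N, the log2 fold change of JGI-293826 in +P was −1.54, and no call of JGI-293826 changed.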
